A study of Mus musculus with 12 samples.

Results

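The 10 genes described here mark the endothelium of the liver. They were chosen by name with earlier results of these data known, and all 10 were found among the 21807 gene identifiers of the count tables. Stab1, Stab2, Lyve1, Clec4g, Oit3 and Gpr182 mark liver sinusoidal endothelial cells, Vwf, Cd34 and Plvap mark other endothelium, and Pecam1 is shared by endothelial cells at large. All 10 passed the filter on low counts at 3 weeks and at 2 weeks. The libraries were poly(A) RNA-seq of liver from C57BL/6J mice, with 3 libraries in each of 4 groups. NICD1/Akt mice received 10 µg of a plasmid for the Notch1 intracellular domain (NICD1) and 10 µg of one for myristoylated AKT, with Sleeping Beauty transposase, by hydrodynamic tail vein injection at 5 weeks of age, and livers were taken 3 weeks (libraries 1, 2 and 3) or 2 weeks later (libraries 33, 34 and 35). The control livers of the 3-week stage (libraries 10, 11 and 12) and of the 2-week stage (libraries 30, 31 and 32) came from mice with no injection, so the oncogenes and the injection cannot be told apart. All mice were of the same strain with no germline change, and the sources describe tissue excised from injected mice as tumor, while every library is labelled liver.

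Sinusoidal endothelial cells line the hepatic capillaries. Their wall has open pores and hardly any basement membrane, and they take up waste macromolecules, modified lipoproteins and hyaluronan from the blood through scavenger and lectin receptors. When these cells lose that identity, a process known as capillarization, they close their pores, lay down a basement membrane and gain proteins of ordinary capillaries such as CD34. Von Willebrand factor is stored by endothelium of larger vessels and by megakaryocytes, and PLVAP forms the diaphragms of endothelial pores and caveolae. In cholangiocarcinoma models such as this one, grown from transfected hepatocytes, new vessels form within a collagen-rich stroma.

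The libraries held 13136892 to 19594839 assigned counts and 5005 to 10794 counts over the 10 genes. Values below are CPM, counts scaled to a common library total after correction by the trimmed mean of M-values (TMM), fold changes are log2 of NICD1/Akt over control with their standard error (SE), and a gene was called when its Benjamini-Hochberg adjusted p in edgeR's quasi-likelihood test, over all genes tested, was under 0.05. Single genes are given on the scale of their own stage, and sums over genes, shares and levels between stages on a scale over all 12 libraries. Library 32, labelled a 2-week control, stood apart from its group. Its Akt1 level was 363.5 CPM, against 86.3 and 85.5 CPM in libraries 30 and 31, and its Notch1 level was 101.4 CPM, against 46.6 and 51.03 CPM. The 2-week NICD1/Akt libraries 33 and 34 had 271.1 and 308.8 CPM of Akt1, so the library labelled 32 lay with the injected animals in both genes, and its 5 biliary markers summed to 1982 CPM, against 66.0 and 68.0 CPM in the other 2-week controls. Library 35 stood apart from the other 2-week NICD1/Akt libraries, with 896.0 CPM of Akt1 and 4595 CPM of biliary markers, against 1139 and 1317 CPM in libraries 33 and 34. The Y-linked gene Ddx3y had 1120 to 1615 counts in the 6 libraries of the 3-week stage, 740 in library 32 and 0 to 6 in the other 5 of the 2-week stage, although the methods name male mice. Stage and presence of Y-linked RNA therefore cannot be told apart, and the fold changes of the 10 genes that use the 2-week controls are given with all libraries and without library 32. In bulk tissue, fewer endothelial cells and less RNA per cell cannot be told apart.

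At 3 weeks, NICD1/Akt livers had less RNA of most sinusoidal genes and much more of Cd34 and Vwf than control livers. Of the 6 sinusoidal genes 4 were lower, Clec4g, Oit3, Gpr182 and Stab2, by 1.44- to 2.41-fold, while Stab1 and Lyve1 did not pass the test. All 3 of the other endothelial genes were higher, Cd34 by 9.61-fold, Vwf by 5.59-fold and Plvap by a margin that few alternative settings kept, and Pecam1 was not called. Change was common among all 13408 genes tested in this comparison: 38.9% were higher and 33.1% lower, and the 3 libraries of each group did not overlap in 41.3% (higher) and 35.5% (lower). The median log2 fold change was -0.59 over the 6 sinusoidal genes and 2.48 over the 3 others, against 0.06 over all genes tested. Scaling mattered for the smaller changes: with library size alone the median of all genes moved to 0.77, and Stab2 (0.17), Gpr182 (0.04) and Stab1 (0.67) took a positive sign, with 1 sinusoidal gene lower and 2 higher. Relative to the median of all genes, the values were -0.59 for Stab2, -1.33 for Clec4g and 3.20 for Cd34. They were the same under both scalings within 0.01, which was given in advance, because a change of scaling shifts all genes nearly alike.

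**Figure D1:**
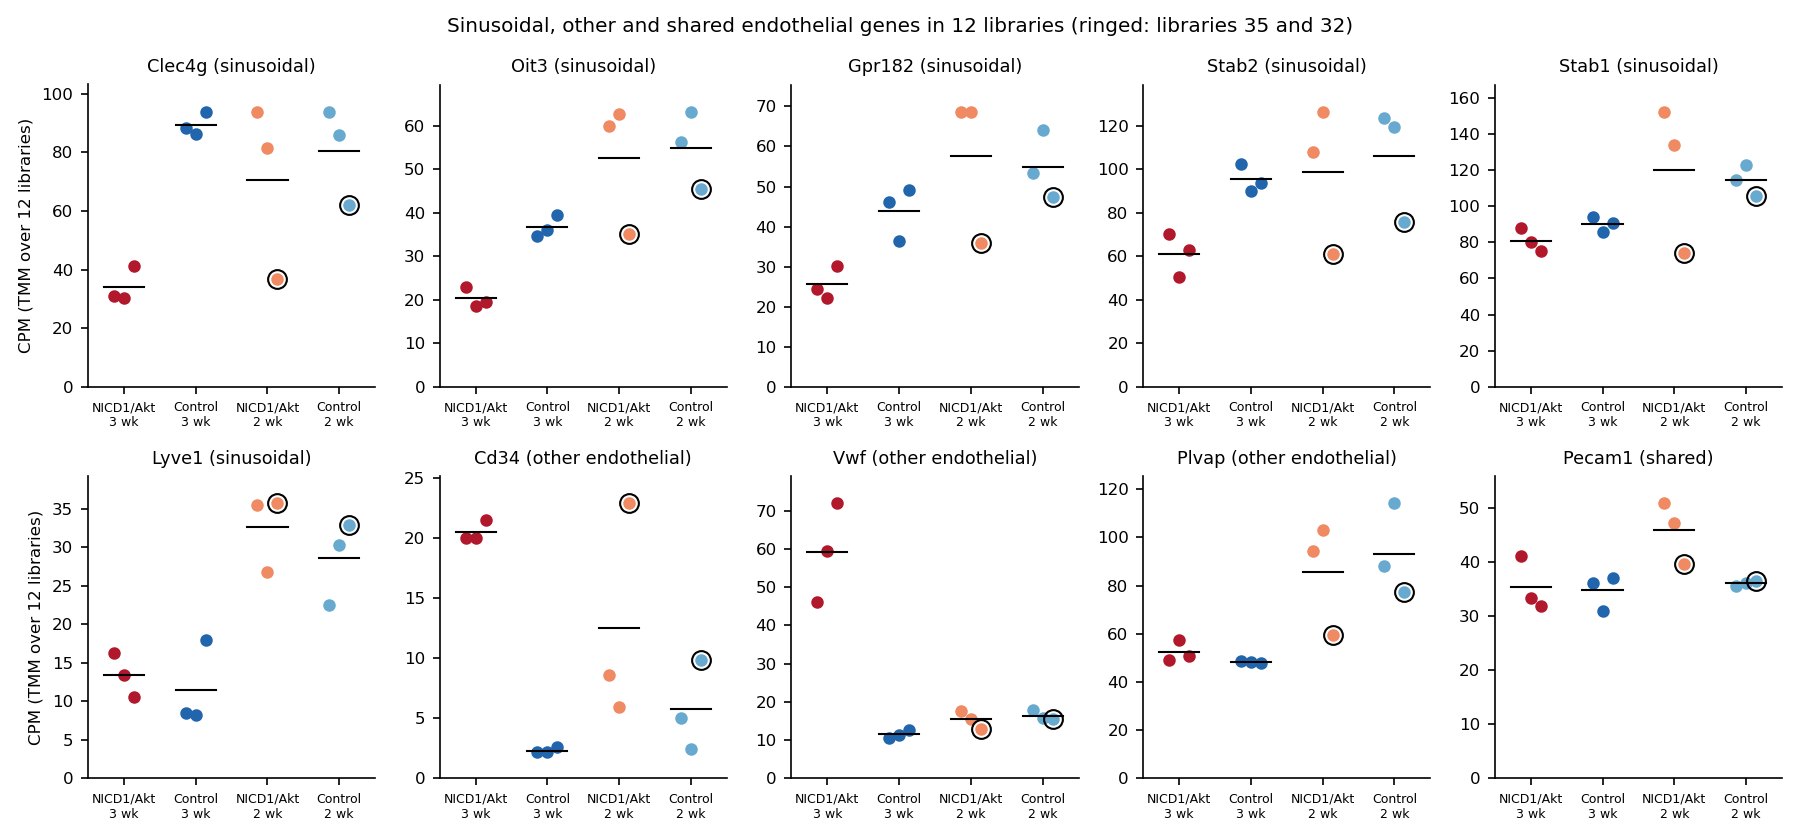
Each panel plots one gene's CPM (linear axis from 0, TMM scaling over all 12 libraries) in the 4 groups, with a point per library and a line at the group mean; rings mark libraries 35 and 32. Clec4g, Oit3, Gpr182 and Stab2 lie lower in the 3-week NICD1/Akt libraries than in the 3-week controls without overlap, Cd34 and Vwf lie higher, and among the 2-week NICD1/Akt libraries library 35 has the lowest value of every gene but Lyve1 and Cd34, of which it has the highest.

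Clec4g, which encodes the lectin LSECtin of sinusoidal endothelium, had 33.8, 33.3 and 45.0 CPM in NICD1/Akt livers, against 89.0, 86.7 and 94.6 CPM in control livers of the 3-week stage. Every NICD1/Akt library was low and the groups were far apart. The log2 fold change was -1.27 (SE 0.13, adjusted p = 4.89e-05), and it kept its sign and its call under all 14 alternative settings, at -1.43 to -0.57. Oit3, a secreted zona pellucida domain protein that liver sinusoidal endothelium makes in mice, had 25.3, 20.3 and 21.4 CPM in NICD1/Akt livers and 34.9, 36.3 and 40.0 CPM in control livers. The groups did not overlap, and the log2 fold change was -0.73 (SE 0.11, adjusted p = 0.000444). Gpr182, an atypical receptor that binds chemokines, had 26.9, 24.2 and 32.9 CPM in NICD1/Akt livers, against 46.6, 36.5 and 49.6 CPM in control livers. Its highest NICD1/Akt library stayed below its lowest control, and the log2 fold change was -0.66 (SE 0.15, adjusted p = 0.00395). Under 13 of the 14 settings Oit3 and Gpr182 kept sign and call, library size alone being the exception (-0.03 and 0.04).

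Of the paired scavenger receptor genes Stab1 and Stab2, Stab2 was lower and Stab1 was not called. Stab2, the main endocytic hyaluronan receptor of the sinusoid, had 76.9, 55.4 and 68.8 CPM in NICD1/Akt livers, against 103.5, 90.5 and 94.9 CPM in control livers. All 3 NICD1/Akt libraries were below all 3 controls, with a log2 fold change of -0.52 (SE 0.13, adjusted p = 0.00623). Stab1, its relative, encodes a receptor for modified lipoproteins and extracellular matrix proteins and is made by some macrophages. Its levels were 96.2, 87.5 and 82.1 CPM in NICD1/Akt livers and 94.5, 86.0 and 91.7 CPM in control livers. The groups overlapped fully, and the log2 fold change was -0.03 (SE 0.10, adjusted p = 0.76). The log2 ratio of Stab1 to Stab2 within a library, which needs no scaling between libraries, was 0.26 to 0.66 in 3-week NICD1/Akt livers and -0.13 to -0.05 in 3-week control livers. It was 0.49, 0.08 and 0.28 in the 2-week NICD1/Akt libraries 33, 34 and 35, against -0.11 and 0.04 in control libraries 30 and 31 and 0.48 in library 32. The ratio was thus higher in all 6 NICD1/Akt libraries, and in library 32, than in the 5 other controls. It was formed after the values were seen and has no test.

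Lyve1, a hyaluronan receptor of lymphatic and sinusoidal endothelium that some macrophages also carry, was the most variable of the sinusoidal genes at 3 weeks. It had 17.8, 14.7 and 11.6 CPM in NICD1/Akt livers, against 8.51, 8.22 and 18.1 CPM in control livers. A single control, library 12, was the highest of the 6, and the groups overlapped. The log2 fold change was 0.34 (SE 0.30, adjusted p = 0.341), and it depended on the setting. Without control library 12 Lyve1 was called higher, at 0.81 (adjusted p = 0.0117), and leaving out any one of the 6 libraries gave 0.14 to 0.81. With library size alone it was also called higher, at 1.04 (adjusted p = 0.0113), whereas it was -0.24 (adjusted p = 0.661) against all controls but library 32 and -0.58 (adjusted p = 0.32) against all 6 controls.

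Among the other endothelial genes, Cd34, a sialomucin of capillary endothelium that fibroblasts, mesothelium and blood stem cells share, had 21.9, 21.8 and 23.5 CPM in NICD1/Akt livers, against 2.17, 2.19 and 2.61 CPM in control livers of the 3-week stage. The 3 NICD1/Akt libraries lay within 2 CPM of each other and far above every control, at a log2 fold change of 3.26 (SE 0.14, adjusted p = 5.74e-07) that ranged from 2.34 to 3.97 over 14 alternatives without losing its call. Vwf had 50.6, 65.0 and 78.6 CPM in NICD1/Akt livers and 10.5, 11.4 and 12.8 CPM in control livers. The lowest NICD1/Akt library was several times the highest control, and the log2 fold change was 2.48 (SE 0.17, adjusted p = 6.18e-06; 2.08 to 3.19 over 14 alternatives, called in each). The 6 platelet and megakaryocyte markers summed to between 2.14 and 4.70 CPM in NICD1/Akt livers and between 4.74 and 6.34 CPM in control livers. Of the 2 that were tested Itga2b was lower (log2 fold change -0.87, adjusted p = 0.0302), but its call was lost in 5 alternative settings. Pf4 was not called, at 1.03 ± 0.45 CPM against 0.54 ± 0.46 CPM (SD, n = 3 each).

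Plvap stood near the threshold. It had 53.9, 63.0 and 55.6 CPM in NICD1/Akt livers, against 49.2, 48.7 and 48.2 CPM in control livers. The groups did not overlap, the controls were unusually close together, and the log2 fold change was 0.24 (SE 0.09, adjusted p = 0.0381). Of 14 alternative settings 3 kept the call. Its adjusted p was 0.0769 in DESeq2 and 0.111 without library 2, and the log2 fold change was -0.43 against all 6 controls. Pecam1, a junction protein of all endothelium that platelets and leukocytes also carry, had 45.0, 36.5 and 34.8 CPM in NICD1/Akt livers, against 36.4, 31.1 and 37.5 CPM in control livers. The groups overlapped, and the log2 fold change was 0.15 (SE 0.12, adjusted p = 0.312).

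**Figure D2:**
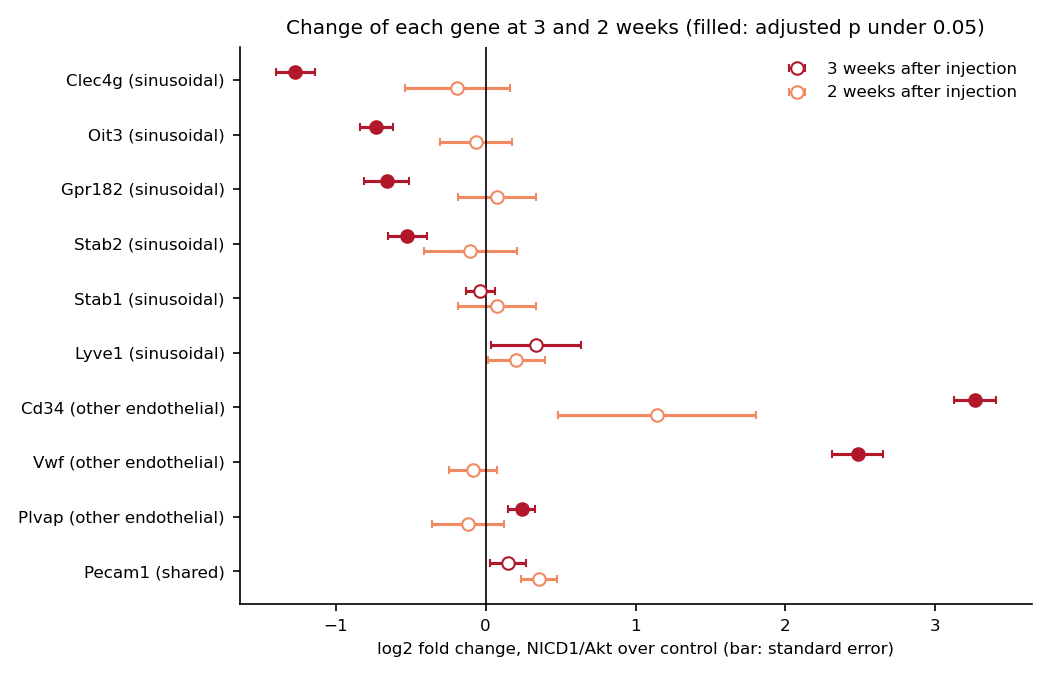
Points give the log2 fold change of NICD1/Akt over control livers for each gene at 3 weeks (upper point) and 2 weeks (lower point), with bars of 1 standard error, and filled points had an adjusted p under 0.05. At 3 weeks Clec4g (-1.27), Oit3 (-0.73), Gpr182 (-0.66) and Stab2 (-0.52) lie left of zero and Cd34 (3.26), Vwf (2.48) and Plvap (0.24) right of it; no 2-week point is filled.

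Set against Pecam1 in the same library, a ratio that needs no scaling between libraries, 5 of the 6 sinusoidal genes had lower values in every NICD1/Akt library of the 3-week stage than in every control. The same held for 36.8% of all genes tested other than Pecam1, and 32.9% were higher without overlap. The mean log2 ratio of Clec4g to Pecam1 was -0.06 ± 0.40 in NICD1/Akt livers and 1.37 ± 0.10 in control livers (SD, n = 3 each), a difference of -1.42, and the differences were -0.88 for Oit3, -0.80 for Gpr182, -0.68 for Stab2 and -0.18 for Stab1. Lyve1 overlapped, at a difference of 0.28. For Cd34 the log2 ratio was -0.78 ± 0.24 in NICD1/Akt livers and -3.91 ± 0.13 in control livers, and for Vwf it was 0.73 ± 0.51 in NICD1/Akt livers and -1.60 ± 0.17 in control livers. Plvap to Pecam1 overlapped between the groups, at 0.57 ± 0.28 in NICD1/Akt livers and 0.48 ± 0.15 in control livers. These ratios are descriptions with no test.

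Within the summed CPM of the 10 genes, the 6 sinusoidal genes held 61.8%, 55.8% and 57.6% in NICD1/Akt livers, against 79.3%, 78.7% and 79.4% in control livers of the 3-week stage. Vwf, Cd34 and Plvap together held 28.2%, 35.5% and 34.7% in NICD1/Akt livers, against 13.0%, 14.2% and 13.0% in control livers. The total of the 10 genes ranged from 385.5 to 415.5 CPM in the NICD1/Akt libraries, against 435.7 to 484.7 CPM in the control libraries. The log2 ratio of the sinusoidal to the other sum differed by -1.72 between NICD1/Akt and control livers, and by -1.21 with CPM per exon length, -1.17 without Vwf and -3.16 without Plvap. Among the 3 other genes, Plvap held 35.2% to 42.7% in NICD1/Akt livers and 75.8% to 79.5% in control livers, while Vwf held 40.0% to 49.8% in NICD1/Akt livers and 17.0% to 20.1% in control livers.

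**Figure D3:**
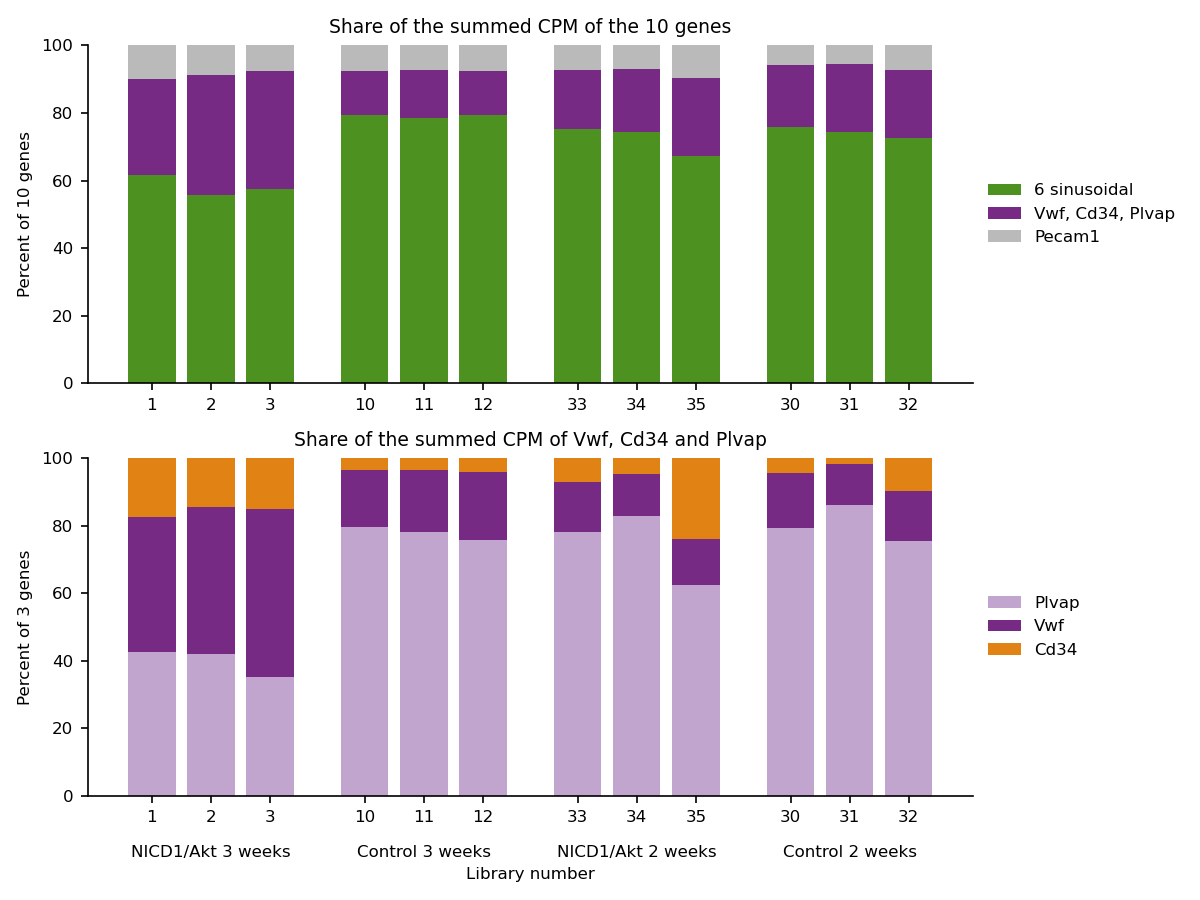
Stacked bars give, for each library (library number on the x axis), the percentage of the summed CPM of the 10 genes held by the sinusoidal genes, by Vwf, Cd34 and Plvap, and by Pecam1 (top), and the percentage of the sum of Vwf, Cd34 and Plvap held by each (bottom). The 3-week NICD1/Akt libraries have sinusoidal shares of 55.8% to 61.8%, the 3-week controls 78.7% to 79.4%, the 2-week NICD1/Akt libraries 67.4% to 75.1% and the 2-week controls 72.7% to 76.0%.

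Per length, the order of the genes also changed. On the scale of CPM per 1000 exon bases, Plvap led in 3-week NICD1/Akt livers (26.4 ± 2.23), followed by Clec4g (13.9 ± 2.47) and then Stab1, Oit3, Stab2, Gpr182 and Pecam1 at means of 7.87, 7.32, 6.99, 6.47 and 5.69, each overlapping the next. Lyve1 (4.598), Vwf (3.68) and Cd34 (2.81) came last and overlapped their neighbors. In 3-week control livers Clec4g led (36.3 ± 1.52), above Plvap (24.3 ± 0.29) with no overlap, then Oit3 (13.2), Gpr182 (11.1), Stab2 (10.9) and Stab1 (8.75), with overlap between Gpr182 and Stab2 alone among these. Pecam1 (5.58) and Lyve1 (3.95) overlapped, and Vwf (0.71 ± 0.07) and Cd34 (0.32 ± 0.03) were the lowest and separate (all SD, n = 3). Vwf and Cd34 thus stayed at the foot of the order in both groups, but in NICD1/Akt livers Vwf reached the range of Lyve1. Each length was that of all annotated exons of the gene together, 16064 bases for Vwf, 7290 for Cd34 and 2919 for Lyve1. The order between genes therefore depends in part on the annotation.

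RefSeq promoter windows (GRCm38.p6) were at hand for 4 of the 10 genes, and they are shown because they set genes of different outcome side by side: Stab1 (not called) with Stab2 (lower), and Clec4g (lower) with Cd34 (higher). Each run gives the 200 bases before the annotated start, read toward the gene, in lower case, with capitals for AGGAA or its reverse complement TTCCT. These letters are a form of the site bound by ETS factors such as ERG and FLI1 that are common to endothelial genes. Other forms of that site were not searched for and stay in lower case. The windows are chr14:31168642-31168841 (minus strand) for Stab1, chr10:87007943-87008142 (minus) for Stab2, chr8:3720652-3720851 (minus) for Clec4g and chr1:194938621-194938820 (plus) for Cd34.
Stab1: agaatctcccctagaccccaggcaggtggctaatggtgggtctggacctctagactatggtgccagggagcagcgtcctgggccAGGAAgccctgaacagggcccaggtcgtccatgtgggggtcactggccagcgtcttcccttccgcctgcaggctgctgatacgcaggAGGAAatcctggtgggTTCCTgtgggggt
Stab2: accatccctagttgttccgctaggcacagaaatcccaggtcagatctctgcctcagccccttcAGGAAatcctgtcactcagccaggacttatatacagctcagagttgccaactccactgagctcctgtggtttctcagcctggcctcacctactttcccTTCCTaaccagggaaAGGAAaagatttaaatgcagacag
Clec4g: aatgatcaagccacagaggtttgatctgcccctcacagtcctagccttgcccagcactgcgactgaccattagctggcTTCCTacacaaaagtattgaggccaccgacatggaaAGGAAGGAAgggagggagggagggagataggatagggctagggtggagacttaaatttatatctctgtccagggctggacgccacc
Cd34: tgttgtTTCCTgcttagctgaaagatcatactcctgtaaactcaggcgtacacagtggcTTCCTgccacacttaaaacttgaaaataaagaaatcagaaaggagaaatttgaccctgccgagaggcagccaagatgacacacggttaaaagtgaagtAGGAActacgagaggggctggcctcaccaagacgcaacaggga
Each of the 4 windows held 3 matches, 2 of those in Clec4g sharing a base, and 52.3% of 32851 promoter windows of this length held at least 1 on either strand. The letters GATAA (GATA factors; 18.1% of windows, both strands) and TGGGAA (RBPJ, the DNA-binding partner of NICD1; 17.3% of windows, both strands) were in none of the 4 windows, so none overlapped an AGGAA match. Other forms of the GATA and RBPJ sites were not searched for, so their absence was not shown. The longest run common to Stab1 and Stab2 was 11 bases, AGGAAATCCTG, beginning 29 bases before the start of Stab1 and 137 bases before that of Stab2, and it was in 13 of the 32851 windows (0.0396%) on either strand. Stab2 and Cd34 also shared a run of 11 bases, CTGGCCTCACC, beginning 59 and 26 bases before their starts and likewise in 13 windows (0.0396%). The longest runs of the other pairs had 6 to 9 bases. Each run was picked as the longest of its pair, so its rarity does not measure how unusual a shared run is. These runs were looked for after the expression values were known.

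Most further sinusoidal genes were lower too. Of 12 such genes 10 were lower in NICD1/Akt livers at 3 weeks, 1 was higher (Cd36) and Maf was not called. Of all genes 33.1% were lower and 38.9% higher. The median log2 fold change of the 12 was -0.68 (0.06 over all genes). With library size alone 2 of the 12 were lower, where 1287 of all 13408 genes were. The macrophage mannose receptor gene Mrc1, which sinusoidal endothelium also uses for uptake, was at 36.5 ± 3.10 CPM in NICD1/Akt livers and 67.6 ± 5.10 CPM in control livers (SD, n = 3 each; log2 fold change -0.89, adjusted p = 8.2e-05). Dnase1l3, a secreted nuclease, was at 61.1 ± 12.4 and 141.1 ± 8.69 CPM in NICD1/Akt and control livers (log2 fold change -1.21, adjusted p = 0.000143). Also lower were Adam23 (log2 fold change -0.86) and Aass (-1.59), a lysine-breakdown enzyme that hepatocytes also make. Cd36, a fatty acid and lipoprotein scavenger receptor that hepatocytes and macrophages share, was higher at 0.53 (adjusted p = 0.0107), and was not called against all controls but library 32.

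Angiocrine genes encode signals that sinusoidal cells send to hepatocytes. Of 7 such genes 3 were lower and 2 higher at 3 weeks, shares near the 33.1% and 38.9% of all genes. With library size alone 1 was lower, where 1287 of all 13408 genes were. Bmp2, a hepcidin-inducing factor, was lower (15.1 ± 3.23 CPM in NICD1/Akt livers, 38.0 ± 11.3 CPM in control livers; log2 fold change -1.33, adjusted p = 0.00122), as was Wnt2, a Wnt ligand of pericentral endothelium (-0.95, adjusted p = 0.00446). Bmp6, which shares the role of Bmp2 in hepcidin control, was higher (48.5 ± 7.32 and 13.0 ± 1.94 CPM in NICD1/Akt and control livers; 1.91, adjusted p = 1.21e-05), as was Dll4, the Notch ligand of arterial and sprouting endothelium (1.31, adjusted p = 0.00179).

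Genes of continuous, arterial and venous endothelium did not follow Cd34 and Vwf as a group. Of 14 tested 5 were higher and 6 lower, against 38.9% and 33.1% of all genes, with a median of 0.19. Cd9 (log2 fold change 2.97), Nr2f2, a venous fate factor (1.61), and Ephb4, a venous ephrin receptor (0.88), were higher, and each is made outside endothelium as well. Thbd, the thrombin cofactor thrombomodulin, was lower (14.8 ± 2.99 CPM in NICD1/Akt livers, 49.3 ± 4.94 CPM in control livers; -1.73, adjusted p = 2.26e-05). With all controls but library 32 as the reference, 2 were higher and 2 lower, and Nr2f2 was no longer called. Of all 13552 genes tested in that setting, 4123 were higher and 2896 lower.

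Genes of growing vessels and of the basement membrane were higher. All 10 in the angiogenic list were higher, with a median log2 fold change of 3.35, also with Apln, which had 0 counts in the 3-week controls, set at its bound from a floor of 3 counts over the group; 9 of 10 were higher against all controls but library 32. Unc5b, a netrin receptor of sprouting endothelium, was at 56.4 ± 3.22 CPM in NICD1/Akt livers and 6.05 ± 1.05 CPM in control livers (SD, n = 3 each; log2 fold change 3.22, adjusted p = 4.71e-07). The basement membrane collagens Col4a1 (3.48), Col4a2 (3.17) and Col15a1 (5.38) were higher, and mesenchymal cells make these as well. Of 6 caveola genes 5 were higher, with a median of 1.94: Cav1 (1.30), Cav2 (3.02), Cavin3 (3.42) and Ehd2 (2.58) among them, which epithelium and fibroblasts share. Among 20 pan-endothelial genes 6 were higher and 4 lower, against 38.9% and 33.1% of all genes. Their median of 0.17 lay close to the 0.15 of Pecam1. Ptprb, the VE-PTP phosphatase, was lower (-0.85, adjusted p = 0.00052), as was the receptor gene Tie1 (-0.62, adjusted p = 0.00152, but 0.08 with library size alone), and the transcription factor genes Sox18 (1.46) and Sox7 (1.04) were higher. Against all controls but library 32, 3 were higher and 5 lower, beside 4123 and 2896 of all 13552 genes. Against all 6 controls 2 of the pan-endothelial genes were higher and 7 lower, beside 3326 and 3498 of 13600. With library size alone 14 were higher and 0 lower, beside 9076 and 1287 of 13408. In the lymphatic list 1 of 4 genes tested was higher, Pdpn (6.83, adjusted p = 2.32e-07), which biliary epithelium and fibroblasts can make and which had 36.7 ± 5.94 CPM in NICD1/Akt livers and 0.32 ± 0.05 CPM in control livers.

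**Figure D4:**
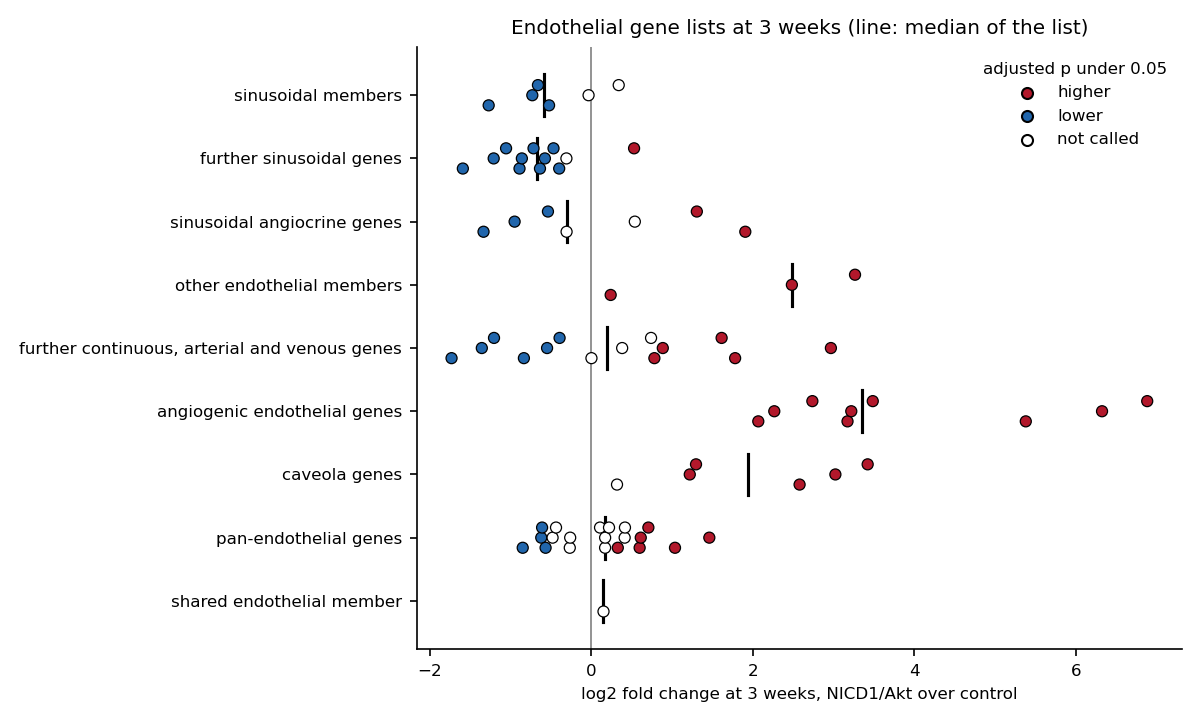
Each point is a gene, placed by its log2 fold change at 3 weeks (NICD1/Akt over control livers) within its list; red, blue and white mark genes higher, lower and not called, and lines mark list medians. Apln is not drawn because its control libraries had 0 counts. The lists of sinusoidal members and further sinusoidal genes lie mostly left of zero (medians -0.59 and -0.68), the angiogenic and caveola lists right of it (3.35 and 1.94). The sinusoidal angiocrine (-0.31) and pan-endothelial (0.17) lists spread to both sides.

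RNA of genes for protein ligands of the sinusoidal scavenger receptors was also measured, in a list shared with hyaluronan synthesis, breakdown and receptor genes. Of 10 genes tested in this list 7 were higher at 3 weeks and 1 was lower, against 38.9% and 33.1% of all genes. The median log2 fold change of the list was 2.87. Postn, a matrix protein taken up through stabilins, was at 99.97 ± 9.24 CPM in NICD1/Akt livers and 4.31 ± 2.12 CPM in control livers (SD, n = 3 each; 4.53, adjusted p = 2.33e-06), and Sparc, a ligand of stabilin-1, was at 770.4 ± 81.1 and 124.3 ± 19.6 CPM in NICD1/Akt and control livers (2.63, adjusted p = 2.6e-06). Cd44, another hyaluronan receptor (3.12), and the hyaluronan synthase gene Has3 (4.45) were higher. The lower gene was Hyal1, a hyaluronidase (-0.57, adjusted p = 0.00725). With library size alone none was lower, where 1287 of all 13408 genes were.

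Markers of other cells that carry some of these genes moved as well, and their part in the results was not tested. Of all genes, 38.9% were higher and 33.1% lower at 3 weeks. All 5 Kupffer cell markers were lower, their sum ranging from 94.7 to 114.3 CPM in NICD1/Akt libraries and from 189.0 to 261.7 CPM in control libraries of the 3-week stage, with Clec4f at -1.09 and Timd4 at -1.23. All 7 other macrophage markers were higher, with sums of 143.4 to 173.9 CPM and 60.2 to 84.3 CPM in NICD1/Akt and control livers, with Cx3cr1 at 5.69 and Ccr2 at 3.53. Both sets bear on Stab1, Lyve1, Mrc1 and Cd36. In 2-week controls the macrophage sums were 145.8 to 177.9 CPM, within or near the 3-week NICD1/Akt range. Against all 6 controls 4 of the 7 were higher, where 3326 of 13600 genes were. Of 7 portal fibroblast and mesothelial markers 5 were higher, the sums being 1878 to 2506 CPM and 167.3 to 240.3 CPM in NICD1/Akt and control livers, with Dpt at 1.84 and Pi16 at 2.76. The sums of 2-week controls were 377.1 to 1225 CPM, and 3 of the 7 were higher against all 6 controls. All 6 mural cell markers were higher, with sums of 420.3 to 539.1 CPM and 115.6 to 136.8 CPM in NICD1/Akt and control livers, with Pdgfrb at 2.09. Of 4 stem cell and lymphoid markers tested 3 were higher, with sums over all 5 of the list of 56.4 to 59.0 CPM and 13.3 to 25.2 CPM in NICD1/Akt and control livers, with Kit at 2.23; these and the fibroblasts bear on Cd34. All 6 hepatocyte markers were lower, with sums of 24140 to 35960 CPM and 101400 to 105100 CPM in NICD1/Akt and control livers, and all 5 biliary markers were higher, with sums of 3371 to 3958 CPM and 73.3 to 116.0 CPM in NICD1/Akt and control livers. No list had a marker at 0 counts throughout a 3-week group except Apln, Has2 and Treml1 in control livers.

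At 2 weeks no member was called. In simulated counts, this test recovered 17 of 100 genes changed 2-fold and 89 of 100 changed 4-fold, against 93 and 99 at 3 weeks. A gene that was not called at 2 weeks may therefore still have changed. Of 13041 genes tested, 0.0% were higher and 0.0% lower in edgeR's quasi-likelihood test, with 1120 at an unadjusted p under 0.05; DESeq2 called 13 higher and 14 lower, and the likelihood ratio test 7 and 5. The groups did not overlap in 7.59% (higher) and 8.52% (lower) of genes. The median log2 fold change was 0.01 over the sinusoidal genes and -0.08 over the others, against 0.01 over all genes. No gene of the further lists was called at 2 weeks.

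Pecam1 was the 1 member of 10 whose 2-week groups did not overlap, with 48.3, 44.9 and 38.3 CPM in NICD1/Akt livers, against 33.8, 34.3 and 34.7 CPM in control livers. All NICD1/Akt libraries were above all controls, but the log2 fold change of 0.35 (SE 0.12) had an adjusted p of 0.52 in edgeR's test, and 0.266 without library 32. Cd34 had 8.20, 5.62 and 22.1 CPM in NICD1/Akt livers, against 4.74, 2.33 and 9.35 CPM in control livers. Library 35 was the highest and library 32 the highest control, above NICD1/Akt libraries 33 and 34, so the groups overlapped. The log2 fold change was 1.14 (SE 0.66, adjusted p = 0.52), 1.77 (adjusted p = 0.265) without library 32 and 0.33 without library 35. Against the 5 controls other than library 32, from both stages, it was 2.16 (adjusted p = 0.0358), where 867 genes were higher and 167 lower. Vwf, by contrast, had 16.9, 14.8 and 12.6 CPM in NICD1/Akt livers and 17.1, 15.1 and 14.7 CPM in control livers. The groups overlapped and no library stood out, at a log2 fold change of -0.08 (SE 0.16, adjusted p = 0.809). Relative to Pecam1 in the same library, Vwf was at -1.58 ± 0.05 in NICD1/Akt livers and -1.14 ± 0.13 in control livers on the log2 scale (SD, n = 3 each). The groups did not overlap in this ratio, but 39.2% of all genes other than Pecam1 also lay lower without overlap and 0.706% higher.

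For the sinusoidal genes the 2-week values turned on library 35. Clec4g had 89.0, 77.5 and 35.4 CPM in NICD1/Akt livers, against 89.0, 81.7 and 59.1 CPM in control livers. Its lowest values were in libraries 35 and 32, the 2 that stood apart, and the log2 fold change was -0.19 (SE 0.35, adjusted p = 0.809). Stab2 had 102.8, 120.1 and 59.1 CPM in NICD1/Akt livers, against 117.2, 113.3 and 72.1 CPM in control livers. The same 2 libraries were again the lowest, and the log2 fold change was -0.10 (SE 0.31, adjusted p = 0.882). Stab1 had 144.6, 127.1 and 71.8 CPM in NICD1/Akt livers, against 108.8, 116.2 and 100.6 CPM in control livers, and libraries 33 and 34 were above every control while library 35 was below, at a log2 fold change of 0.08.

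Oit3 had 56.9, 59.6 and 34.03 CPM in NICD1/Akt livers, against 53.5, 60.0 and 43.4 CPM in control livers. Gpr182 had 65.2, 65.1 and 34.8 CPM in NICD1/Akt livers, against 50.6, 60.9 and 45.1 CPM in control livers. Library 35 was the lowest of the 6 in both, and the groups overlapped, at log2 fold changes of -0.06 and 0.08. Lyve1 had 33.7, 25.5 and 34.5 CPM in NICD1/Akt livers, against 21.3, 28.8 and 31.4 CPM in control livers. Here library 35 was not low, the groups overlapped, and the log2 fold change was 0.20 (SE 0.19, adjusted p = 0.63). Plvap had 89.6, 98.0 and 57.7 CPM in NICD1/Akt livers, against 83.7, 108.3 and 73.5 CPM in control livers, and the groups overlapped, at a log2 fold change of -0.12. Without library 35 the log2 fold changes of Clec4g, Stab2, Oit3, Vwf and Plvap were positive (0.11, 0.13, 0.14, 0.01 and 0.07) and none was called. Without library 32 no gene of the series was called either, with 2418 at an unadjusted p under 0.05. The log2 fold changes were then -0.36 for Clec4g, -0.31 for Stab2, 0.01 for Stab1, -0.19 for Oit3, -0.03 for Gpr182, 0.31 for Lyve1, -0.24 for Plvap, -0.13 for Vwf and 0.36 for Pecam1.

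The sinusoidal share of the 10 genes at 2 weeks was 75.1%, 74.4% and 67.4% in NICD1/Akt livers, against 76.0%, 74.2% and 72.7% in control livers. Library 35 had the lowest share of the 2-week stage, still above every 3-week NICD1/Akt library. Cd34 made up 23.9% of the sum of Vwf, Cd34 and Plvap in library 35 and Vwf 13.6%, whereas in 3-week NICD1/Akt libraries Cd34 made up 14.6% to 17.3% and Vwf 40.0% to 49.8%. High Cd34 without high Vwf was thus seen in library 35, and both were high in all 3 later libraries. For library 35 the angiogenic genes summed to 1277 CPM (471.4 and 527.7 CPM in the other 2-week NICD1/Akt libraries), the portal fibroblast and mesothelial markers to 2652 CPM (730.7 and 966.2 CPM) and the Kupffer cell markers to 186.8 CPM (412.6 and 587.3 CPM); their part in its endothelial values was not tested.

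The change between the stages was tested in a fit of all 12 libraries, as the difference between the NICD1/Akt effects at 3 and at 2 weeks. Among 13829 genes, 15.0% had a higher and 15.8% a lower effect at 3 weeks. Vwf differed by 2.46 (SE 0.24, adjusted p = 0.000648), with an effect of 2.48 at 3 weeks and -0.08 at 2 weeks, and it was called under all 18 alternatives. Clec4g differed by -1.20 (SE 0.41, adjusted p = 0.0472), with effects of -1.27 and -0.19, and kept the call in 3 of 18 alternatives; without library 32 the difference was -1.01 (adjusted p = 0.0944) and without library 35 it was -1.51 (adjusted p = 0.0012). Cd34 differed by 2.01 (SE 0.74, adjusted p = 0.06), Oit3 by -0.78 (adjusted p = 0.0583) and Gpr182 by -0.85 (adjusted p = 0.0738), none of them called. Without library 35 all 3 were called, at 2.80, -1.01 and -1.10, along with Stab2 (-0.79) and Stab1 (-0.48), so 5 of 6 sinusoidal genes then had a lower effect at 3 weeks, in a fit where 25.1% of all genes had a lower and 23.7% a higher effect. Without library 32, where the shares were 10.9% lower and 10.1% higher, Vwf was the 1 member called, at 2.52 (adjusted p = 0.000875). Cd34 was then at 1.40 (adjusted p = 0.161), Oit3 at -0.64, Gpr182 at -0.73, Stab2 at -0.32, Stab1 at -0.15, Lyve1 at -0.07, Plvap at 0.38 and Pecam1 at -0.31. The remaining members, Stab2 (-0.53), Stab1 (-0.22), Lyve1 (0.03), Plvap (0.24) and Pecam1 (-0.32), were not called in the fit of all libraries.

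Compared directly, 3-week NICD1/Akt livers had less RNA than 2-week NICD1/Akt livers of 4 sinusoidal genes, of Plvap and of Pecam1, and more of Vwf. In this contrast 11.1% of genes were higher and 17.4% lower. On the 12-library scale Vwf was at 59.2 ± 12.9 CPM at 3 weeks and 15.4 ± 2.38 CPM at 2 weeks (SD, n = 3 each; log2 fold change 1.94, adjusted p = 9e-05). Oit3 (-1.36), Lyve1 (-1.28), Gpr182 (-1.17) and Clec4g (-1.05) were lower, with adjusted p from 0.00164 to 0.0227, as were Plvap (-0.71, adjusted p = 0.0217) and Pecam1 (-0.37, adjusted p = 0.0464). Stab2 (-0.69, adjusted p = 0.0678) and Stab1 (-0.57, adjusted p = 0.0633) were not called, and were called without library 35 (-0.94 and -0.82). The call of Pecam1 held in 4 of 13 alternative settings and those of Clec4g and Plvap in 8 each.

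Control livers also differed between the stages in 4 of the 10 genes. Of all genes 17.4% were higher and 20.4% lower at 3 weeks than at 2 weeks. Lyve1 was at 11.5 ± 5.55 CPM in 3-week controls and 28.6 ± 5.43 CPM in 2-week controls (log2 fold change -1.31, adjusted p = 0.00609), a size close to its -1.28 in NICD1/Akt livers. Plvap was at 48.3 ± 0.59 and 93.2 ± 19.0 CPM in 3-week and 2-week controls (-0.95, adjusted p = 0.00371), Oit3 was lower by -0.58 (adjusted p = 0.0432) and Vwf by -0.52 (adjusted p = 0.0376). The remaining 6 members were not called, Gpr182 at -0.32, Stab1 at -0.34, Stab2 at -0.15, Clec4g at 0.15, Pecam1 at -0.05 and Cd34 at -1.31 (adjusted p = 0.0862). The call of Oit3 held in 5 of 13 alternative settings and that of Vwf in 7. Without library 32 Lyve1 (-1.21), Plvap (-1.09), Oit3 (-0.72) and Vwf (-0.58) were again the members called, with Gpr182 at -0.44, Stab1 at -0.42, Stab2 at -0.37, Clec4g at -0.03, Pecam1 at -0.06 and Cd34 at -0.71. The stage difference of Lyve1 and of Plvap was thus also present in livers labelled control, and stage cannot be told apart from the presence of Y-linked RNA.

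By the root mean square difference of log2 CPM centered over the 12 libraries, taken over 10371 genes whose mean reached 5 CPM, the 5 genes most like Pecam1 were Mapre2 (0.123), Trappc9, Cdh5 (0.13), Bahd1 and Nfe2l1, of which Cdh5 encodes the endothelial junction protein VE-cadherin. Those most like Stab2 included Arfgef2 (0.09, beside a spread of 0.44 for Stab2 itself), Svip, Minpp1 and Bmp1 (0.145). For Plvap they were Ntn4 (0.121, beside a spread of 0.475), Parp10, Borcs7, Tbl1xr1 and Man2b1 (0.163). These are descriptions over 12 libraries that share groups and scaling.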

How the data were processed

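Gene-level counts of 12 liver libraries were analyzed as deposited by the authors, in 1 table per stage. Per the labels, GRCm39, STAR 2.7 and Subread 2.0.6 were used in their making, while the methods name mm10; the build was not settled, so no coordinates are given for counted genes. All 21807 identifiers were kept, of which 21573 had a symbol in the reference table. Genes passing filterByExpr were scaled by TMM and tested with edgeR 4.0.16 (R 4.3.3) quasi-likelihood fits, on the 6 libraries of a stage or on all 12 for contrasts between stages, with two-sided p-values adjusted by Benjamini-Hochberg. DESeq2 1.42.0, the likelihood ratio test, other scalings, no filter, other control sets and leaving out each library were alternatives; the use of all controls but library 32 was chosen after seeing the data. The fits were first tested on simulated data. There the test of the difference between effects recovered 25 of 100 genes changed 2-fold and 80 of 100 changed 4-fold. Exon lengths were those of all exons of a gene together in GENCODE M21, over all its transcripts. Libraries of 1 group differed beyond sampling noise, and the tests rest on that spread alone, which may be partly technical. Library numbers are not shared by groups. The 10 genes and all lists were chosen with earlier results of these data known. From each further list, up to 4 genes of lowest adjusted p in the 3-week test are named, with the 5 genes nearest in pattern to Stab2, Plvap and Pecam1, 1 of which is not reported here; Cd36, Maf, Hyal1, Apln, Has2, Treml1, Ddx3y, Notch1 and Akt1 were added after their values were seen.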

Additional observations from a re-analysis of the deposited data

Results flagged for a closer look

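The NICD1/Akt effects at 3 and 2 weeks differed, by a test of the difference in all 12 libraries, for Vwf (2.46 on the log2 scale, adjusted p = 0.000648) and Clec4g (-1.2, adjusted p = 0.0472, edgeR). For Vwf the 3 NICD1/Akt libraries were above the 3 controls at 3 weeks and mixed with them at 2 weeks. For Clec4g the call was lost without library 32 (adjusted p = 0.0944), and the difference was -1.51 without library 35.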

How the results depend on the processing

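Depth limits the low genes most: Cd34 had 25 to 31 counts in the 3-week control libraries. No paired analysis was possible because the groups share no library numbers. At 3 weeks, library size alone gave 0.67 for Stab1, 0.17 for Stab2, 0.04 for Gpr182 and 0.08 for Tie1, with 9076 genes higher and 1287 lower, 2 sinusoidal members higher and 1 lower, and a median of all genes of 0.77, against 0.06 with TMM. Upper quartile factors gave 0.12 for Stab1. The use of all 6 controls gave -0.58 for Lyve1, -0.43 for Plvap and 3326 genes higher. The use of all controls but library 32, chosen after seeing the data, gave -0.24, -0.26 and 2896 genes lower. Leaving out 1 library gave -0.10 to 0.01 for Stab1 and 0 to 1 sinusoidal members higher.

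At 2 weeks, DESeq2 called 13 genes higher and 14 lower and the likelihood ratio test 7 and 5. Library size alone gave 0.06 for Stab2, 0.10 for Oit3, 0.10 for Vwf and 0.05 for Plvap. All 6 controls gave 0.20 for Oit3, 0.16 for Vwf and 0.28 for Plvap, and all controls but library 32 gave 0.21, 0.19 and 0.31, with 867 genes higher, 167 lower and 1 other endothelial member higher. Leaving out 1 library gave -0.44 to 0.11 for Clec4g, -0.07 to 0.31 for Gpr182, -0.21 to 0.14 for Oit3, -0.27 to 0.07 for Plvap, -0.13 to 0.31 for Stab1, -0.32 to 0.13 for Stab2 and -0.19 to 0.01 for Vwf, the highest value of each being that without library 35.

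For the difference between the effects, library size alone gave 0.45 for Stab1, 0.12 for Stab2 and 0.31 for Pecam1, with 3520 genes higher, 297 lower, 0 sinusoidal members lower and 2 others higher. Upper quartile factors gave 0.02 for Stab1, 1124 genes lower and 0 sinusoidal members lower, and DESeq2 size factors in edgeR and no filter on low counts also gave 0 sinusoidal members lower. The likelihood ratio test called 2 sinusoidal members lower and 2 others higher, and DESeq2 called 2 others higher. Leaving out 1 library gave -0.17 to 0.50 for Lyve1, 1203 to 3307 genes higher, 1201 to 3494 genes lower, 0 to 5 sinusoidal members lower and 1 to 2 others higher, with the most calls without library 35.

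Between NICD1/Akt livers at 3 and 2 weeks, library size alone gave 0.08 for Pecam1, 3435 genes higher, 940 lower, 2 sinusoidal members lower and 0 others lower. Leaving out 1 library gave 668 to 3125 genes higher, 1317 to 3564 lower, 3 to 6 sinusoidal members lower, 1 to 2 others higher and 0 to 1 others lower, again with the most genes called without library 35. Between control livers of the 2 stages, library size alone gave -0.01 for Clec4g, 1285 genes higher and 4 sinusoidal members lower. Leaving out 1 library gave -0.03 to 0.27 for Clec4g, -0.10 to 0.02 for Pecam1, 1 to 3 sinusoidal members lower and 1 to 3 others lower. The log2 ratio of sinusoidal to other members was -1.72 between NICD1/Akt and control livers at 3 weeks. It was -1.21 with CPM per 1000 exon bases, -1.93 without Stab1, -1.17 without Vwf and -3.16 without Plvap. At 2 weeks it was -0.04, and -0.38 without Plvap. The cause of these changes was not tested.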
